A study of Mus musculus with 2 samples.

Results

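The genes described here make, desaturate, carry, store and burn fatty acids, together with the nuclear receptors that sense them. They are 40 of the 55414 genes in the deposited gene table, taken by gene symbol from a list of enzymes, carriers, droplet proteins and receptors, and all 40 were found. Poly(A) RNA was sequenced from RAW246.7 cells, as the labels spell this mouse macrophage-like line, with 1 library from cells under normal strain (control) and 1 from cells loaded with 20% elongation (stretched), each over 24 h. Whether loading was static or repeated is not stated. How much strain the normal condition means is not stated. The labels name no genotype and no other agent, list synovial membrane as the tissue beside this single cultured line, and give no number of dishes or passages, so culture, handling and strain cannot be told apart between the libraries. With 1 library per group there was no spread between cultures and no test: each difference compares these libraries only.

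Fatty acids are built in the cytosol from citrate by ATP citrate lyase, acetyl-CoA carboxylase and fatty acid synthase, then lengthened by ELOVL enzymes and given double bonds by desaturases. Acyl-CoA synthetases activate them for one of several fates: esterification and storage in lipid droplets coated by perilipins, or transfer by carnitine palmitoyltransferases into mitochondria for oxidation. SREBP-1 drives transcription of the synthetic genes, while the peroxisome proliferator-activated receptors (PPARs) bind fatty acids, pair with retinoid X receptors (RXRs) and act on genes of uptake, storage and oxidation. In macrophages this machinery is known for foam cell formation and for supplying membrane lipids during activation.

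The libraries held 14769100 (control) and 13391645 (stretched) estimated counts, where an estimated count is the number of fragments that the authors' software assigned to a gene. Of the 55414 genes, 12772 had at least 20 counts over both libraries, and their median log2 difference, stretched over control, was -0.0014 after scaling by trimmed mean of M values (TMM). The macrophage label was checked against 10 markers: 8 had at least 20 counts in both libraries, while Mrc1 (4 and 1 counts) and Mertk (3 and 0 counts) were near 0. The summed FPKM (fragments per kilobase of transcript, scaled to library depth) of the macrophage markers was 2690 in control and 3878 in stretched cells. Lyz2, the lysozyme gene, was the largest part of it in both libraries, at 1320 and 2289 FPKM. Of 36 markers of adipocytes, synovial fibroblasts, endothelial cells, B cells, T cells and hepatocytes, 16 were listed at 0 in both libraries and none exceeded 18 counts in control or 23 in stretched cells. The adipocyte genes Adipoq, Cfd, Lep and Cidea were listed at 0, as were the fibroblast genes Col1a2, Col3a1, Pdgfra, Thy1, Pdpn and Dcn. In bulk RNA, fewer cells carrying a transcript and less transcript per cell cannot be told apart.

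Of the 40 genes, 37 passed 20 counts over both libraries and 3 did not: Mgll (0 and 1 counts), Pparg (0 and 0) and Ppara (0 and 0). A gene was called higher or lower at 2-fold when it passed 20 counts, differed at least 2-fold in scaled counts, and had an exact binomial 95% counting interval of the ratio that excluded 1. By that rule 2 of the 37 were higher in stretched cells, Fabp4 and Fabp5, where 3.12% of all genes past 20 counts were. None was lower, where 1.94% of all genes were. At 1.5-fold, 4 were higher (Fabp4, Fabp5, Plin2 and Nceh1), against 6.20% of all genes, and 2 were lower (Scd2 and Lpl), against 3.64% of all genes. The other 31 met neither rule. The median log2 difference of the 37 was 0.01, with 19 above 0 and 18 below, and 18 of the 37 (48.6%) lay within 0.2 of 0, close to the 50.6% of all genes. Intervals that excluded 0 were commoner than among all genes (16 above and 11 below, or 43.2% and 29.7%, against 22.9% and 21.9%), but most of these genes are well counted and an interval narrows with the count. Intervals here cover counting error only.

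**Figure D1:**
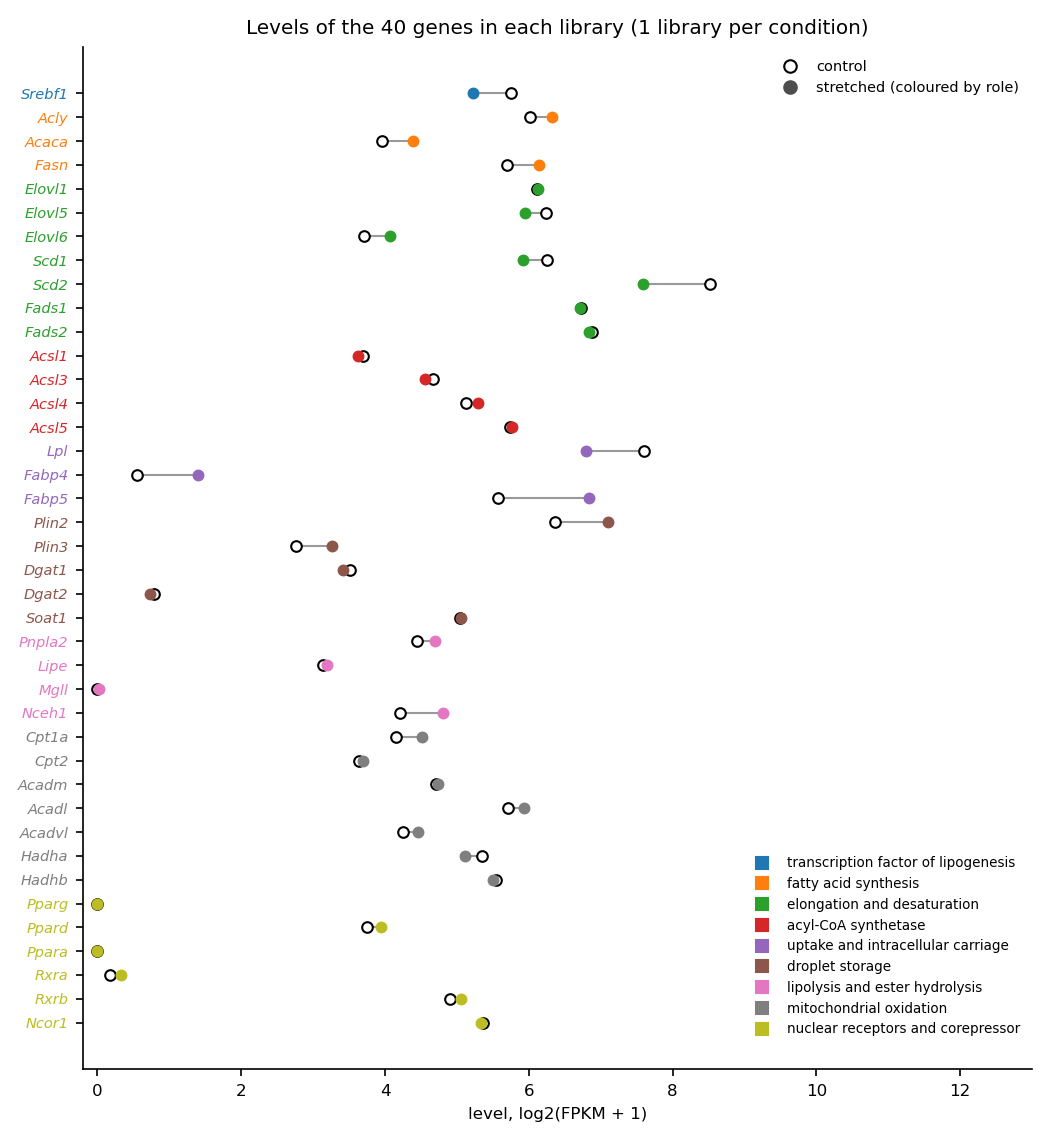
Level of each of the 40 genes in each library on the log2(FPKM + 1) axis, with open circles for control and filled circles, coloured by role, for stretched cells; each group is 1 library. The widest gaps at high level are those of Scd2 and Lpl, lower in stretched cells, and of Fabp5 and Plin2, higher in stretched cells, while Pparg, Ppara and Mgll sit at or near 0.

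Promoter windows are printed because they belong to genes on which the results turn: Srebf1, Acly and Acaca, whose counts were divided differently between annotated transcript starts in the libraries, and Plin2, the most abundant droplet coat gene here. Each is the RefSeq window of 250 bases before to 50 bases after a start (assembly GRCm38.p6), 5′ to 3′ on the strand of the gene. Capitals mark the GC box GGGCGG, the CCAAT box CCAAT, the E-box CACGTG and the nuclear receptor hexamer AGGTCA, on either strand.
Srebf1 leading start, chr11:60220578-60220877, minus strand: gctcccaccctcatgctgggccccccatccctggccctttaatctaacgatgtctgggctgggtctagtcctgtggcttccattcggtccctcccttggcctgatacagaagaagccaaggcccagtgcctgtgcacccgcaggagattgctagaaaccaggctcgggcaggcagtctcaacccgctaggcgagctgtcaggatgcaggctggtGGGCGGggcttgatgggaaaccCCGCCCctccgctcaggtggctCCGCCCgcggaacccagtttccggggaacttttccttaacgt
Srebf1 downstream start, chr11:60210422-60210721, minus strand: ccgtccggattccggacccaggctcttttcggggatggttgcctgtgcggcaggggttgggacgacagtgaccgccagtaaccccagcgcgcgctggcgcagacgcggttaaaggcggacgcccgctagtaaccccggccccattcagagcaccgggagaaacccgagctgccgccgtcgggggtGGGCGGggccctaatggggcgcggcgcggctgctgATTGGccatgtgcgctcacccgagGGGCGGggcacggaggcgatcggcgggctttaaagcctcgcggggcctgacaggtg
Acly, chr11:100527951-100528250, minus strand: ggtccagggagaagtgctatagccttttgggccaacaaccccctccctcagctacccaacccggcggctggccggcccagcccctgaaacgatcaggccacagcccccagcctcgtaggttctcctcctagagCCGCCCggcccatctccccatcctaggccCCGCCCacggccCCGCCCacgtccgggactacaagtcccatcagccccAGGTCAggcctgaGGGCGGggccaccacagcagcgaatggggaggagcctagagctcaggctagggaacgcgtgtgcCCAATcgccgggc
Acaca downstream start, chr11:84195188-84195487, plus strand: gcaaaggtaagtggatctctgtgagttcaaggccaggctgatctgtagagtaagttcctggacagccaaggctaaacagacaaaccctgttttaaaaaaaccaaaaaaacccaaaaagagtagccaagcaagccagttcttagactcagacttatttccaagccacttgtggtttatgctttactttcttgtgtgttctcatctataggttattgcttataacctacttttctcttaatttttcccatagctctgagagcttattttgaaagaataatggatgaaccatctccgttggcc
Plin2, chr4:86670010-86670309, minus strand: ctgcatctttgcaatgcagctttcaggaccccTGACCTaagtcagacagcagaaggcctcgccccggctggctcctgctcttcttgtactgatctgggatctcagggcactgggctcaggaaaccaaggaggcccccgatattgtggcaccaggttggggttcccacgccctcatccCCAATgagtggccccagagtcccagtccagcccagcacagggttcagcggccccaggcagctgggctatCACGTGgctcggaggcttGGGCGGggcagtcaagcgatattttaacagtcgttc
The window of the leading Srebf1 start holds 3 GC boxes, and that of the downstream start 2 GC boxes and 1 CCAAT box in reverse. The Acly window holds 4 GC boxes, 1 hexamer and 1 CCAAT box. The Acaca window holds none of the motifs searched, so it has no capitals. The Plin2 window holds 1 each of GC box, CCAAT box, E-box and receptor hexamer, with the E-box spanning its start.

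RefSeq windows were matched by symbol for 32 of the 40 genes, giving 43 windows, since some genes have several starts. Scd1, Scd2, Fads1, Fabp4, Fabp5, Lpl, Dgat1 and Dgat2 had no window. GC boxes stood in 29 of the 43 windows (67.4%), against 35.7% of all 32851 windows of the same length in that table. The CCAAT box was in 39.5% of the 43 and 37.4% of all windows, the E-box in 11.6% and 7.15%, and the receptor hexamer in 23.3% and 16.3%. A core sterol response element, TCAC and CCAC with any 1 base between, was found in 1 window (2.33%, against 1.24% of all), and direct repeat 1, a pair of AGGTCA hexamers separated by any 1 base, in 0 of the 43, as it was in only 0.0396% of all windows. All motifs were searched on both strands, the hexamer count includes any copy inside a direct repeat, and no windows were weighted by the level of the gene. A match is a run of letters and not a bound site.

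The SREBP-1 gene and 3 of the genes it is known to act on, Acly, Acaca and Fasn, stood on opposite sides of 0. Of the 7 elongation and desaturation genes described below, 6 lay below 0, as Srebf1 did, and 1 above. Elovl1, Fads1 and Fads2 among the 6 lay within 0.2 of 0. Of all 12772 genes past 20 counts, 6405 lay below 0. Srebf1 (chr11:60089915-60113407 in GRCm39, the build of the gene table) had 3293 counts in control and 2036 in stretched cells, or 52.7 and 36.5 FPKM. Its log2 difference was -0.57 (counting interval -0.65 to -0.49), 1.48-fold lower in stretched cells, just short of the 1.5-fold rule. All 3 synthetic genes were higher in the stretched library by amounts beyond counting error. Acly, ATP citrate lyase, which releases cytosolic acetyl-CoA from citrate, had 4297 and 4912 counts (63.9 and 79.3 FPKM), a log2 difference of 0.32 (0.26 to 0.38). Acaca, acetyl-CoA carboxylase 1, which makes the malonyl-CoA used for chain growth, had 2119 and 2556 counts (14.5 and 20.0 FPKM), a difference of 0.40 (0.31 to 0.48). Fasn, fatty acid synthase, which assembles palmitate, had 8269 and 10080 counts (50.9 and 69.7 FPKM), a difference of 0.41 (0.37 to 0.45). The largest of these 3 differences was 1.33-fold, so none met either fold rule. In the authors' deposited table, the adjusted p-values were 0.185 for Srebf1, 0.887 for Acly, 0.682 for Acaca and 0.595 for Fasn.

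The stearoyl-CoA desaturase genes had lower counts in the stretched library, led by the most abundant of the 40. Scd2, a stearoyl-CoA desaturase, which puts the first double bond into saturated fatty acids, had 32544 counts in control and 15178 in stretched cells, or 367 and 192 FPKM. It ranked first of the 40 by FPKM in both libraries, and its log2 difference was -0.97 (-1.003 to -0.947), a 1.97-fold lower level that fell just short of the 2-fold rule. Scd1, the liver and adipose form, had 5961 and 4171 counts (75.6 and 59.4 FPKM), a difference of -0.39 (-0.45 to -0.33), and was smaller in both level and difference. The SCD genes lie side by side on chromosome 19, within 205 kb of chr19:44191708-44396318 in GRCm39, and the others there were also lower: Scd3 with 231 and 96 counts (-1.14, interval -1.50 to -0.79) and Scd4 with 83 and 47 counts (-0.69, interval -1.24 to -0.16). Summed over the 4 genes the SCD level was 448 FPKM in control and 254 in stretched cells, 1.76-fold lower. Scd2 made up 81.9% of it in control and 75.5% in stretched cells, and Scd1 16.9% and 23.4%. Scd1 and Scd2 share sequence with Scd3, over 5.92% and 4.87% of the 31-base stretches of their leading transcripts, and Scd2 is far more abundant, so the Scd3 counts and their lower value could come in part or wholly from Scd2 or Scd1.

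Polyunsaturated desaturases and elongases differed less. Fads1 and Fads2, the delta-5 and delta-6 desaturases that make long polyunsaturated fatty acids from dietary precursors, stood at 105 and 117 FPKM in control and 104 and 113 in stretched cells. Their log2 differences were -0.08 (-0.13 to -0.02) and -0.09 (-0.14 to -0.04), small beside that of Scd2 although they are also on chromosome 19, within 134 kb of each other. Elovl5, an elongase of polyunsaturated chains, had 3394 and 2446 counts, a difference of -0.35 (-0.42 to -0.27). Elovl6, which extends palmitate to stearate, went the other way, with 1146 and 1335 counts and a difference of 0.35 (0.23 to 0.46). Elovl1, an elongase of very long chains, had 1787 and 1620 counts and a difference of -0.02 (-0.11 to 0.08), an interval that includes 0. Of the 7 elongation and desaturation genes, 6 lay below 0, with a median of -0.09.

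The 4 acyl-CoA synthetases, which activate free fatty acids, had a summed level of 122 FPKM in control and 126 in stretched cells. Acsl5, the most abundant, had 3577 and 3293 counts (log2 difference 0.01, interval -0.06 to 0.07). Acsl4, which prefers arachidonate, had 2756 and 2785 counts (0.14, interval 0.06 to 0.22), Acsl3, found on lipid droplets and the endoplasmic reticulum, 1316 and 996 (-0.28, -0.40 to -0.16), and Acsl1, an inducible long-chain form, 750 and 639 (-0.11, -0.26 to 0.05). These genes thus spread around 0 with no common direction. Acsl3 overlaps Utp14b on the same strand (217 and 165 counts), so reads of these genes could be divided between them. Genes with at least 20 counts overlap 6 others of the 40 on the opposite strand: Rai1 at Srebf1, Cdc20 at Elovl1, Zdhhc6 at Acsl5, 4732471J01Rik at Lipe, Dvl2 at Acadvl, and Pigl, Ttc19 and Gm12276 at Ncor1. Use of strand in the counting is unknown here, so reads of such pairs might be mixed.

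**Figure D2:**
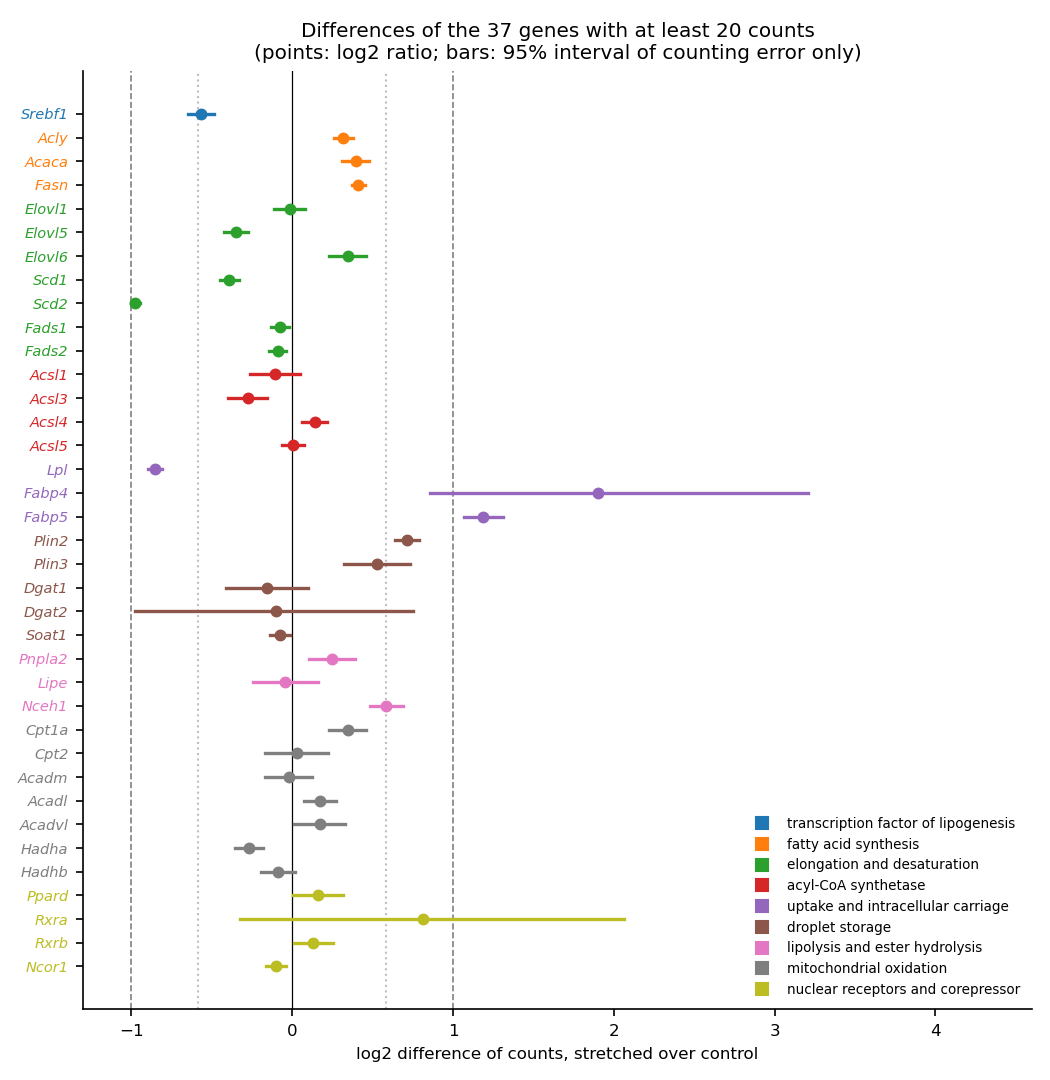
Log2 difference of scaled counts, stretched over control, for the 37 genes with at least 20 counts, by role; bars are 95% counting intervals from 1 library per group, dashed lines mark 2-fold and dotted lines 1.5-fold. Fabp5 lies at 1.19, Plin2 at 0.72, Lpl at -0.85 and Scd2 at -0.97, while the synthetic genes sit between 0.32 and 0.41.

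Of the 3 uptake and carriage genes, both carriers were higher and the lipase Lpl was lower. Fabp5 (chr3:10077608-10081667 in GRCm39), an intracellular fatty acid carrier of macrophages and skin, had 810 counts in control and 1693 in stretched cells, or 46.8 and 113 FPKM. Its log2 difference was 1.19 (1.07 to 1.31), 2.28-fold higher in stretched cells, and its rank by FPKM among the 40 went from 14 to 4. Fabp4, the carrier of adipocytes that macrophages also make, had only 9 and 32 counts (0.461 and 1.63 FPKM), a difference of 1.90 with a wide interval (0.86 to 3.21). On the log2(FPKM + 1) scale the difference of Fabp4 was 0.85, under 2-fold, and a filter of 100 counts removed the gene. The FABP genes Fabp5 and Fabp4 are neighbours on chromosome 3 within 196 kb, while Pmp2 and Fabp9 between them were listed at 0 in both libraries. Summed over Fabp3, Fabp4, Fabp5 and Fabp7, the FABP level was 48.4 FPKM in control and 116 in stretched cells, 2.40-fold higher, and Fabp5 made up 96.6% and 97.7% of it. Fabp4 thus added little to the family level in either library. The authors' deposited table marks both as up, with log2 fold changes of 1.19 (adjusted p = 7.1e-06) for Fabp5 and 1.94 (adjusted p = 0.0212) for Fabp4.

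Fabp5 shares 33.1% of the 31-base stretches of its leading transcript with other genes, mostly the processed pseudogene Gm6166, which had 146 and 252 counts. With Gm6166 added, an alternative chosen after the data were seen, the counts were 956 and 1945 and the log2 difference 1.15 (1.04 to 1.26), 2.22-fold higher. The call for Fabp5 was therefore the same whether these reads were added or not. No 31-base stretch of Fabp4 was shared with another gene.

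Lpl (chr8:69333143-69360100 in GRCm39), the secreted lipase that frees fatty acids from lipoprotein triglyceride at the cell surface, was lower. It had 12945 counts in control and 6576 in stretched cells, or 194 and 110 FPKM, ranked 2 of the 40 by FPKM in control and 5 in stretched cells. Its log2 difference was -0.85 (-0.89 to -0.81), 1.80-fold lower, and the authors' deposited table gives a log2 fold change of -0.851 with adjusted p = 0.00312. Among further uptake genes, Cd36, a fatty acid translocase and scavenger receptor, was 2.67-fold higher, with 93 and 228 counts (1.41, interval 1.07 to 1.78), at a lower level of 1.81 and 5.30 FPKM. Slc27a1, a fatty acid transport protein, had 3800 and 4371 counts (0.33), and Dbi, the acyl-CoA binding protein, 471 and 605 (0.49). Of the 10 further uptake and carriage genes, 7 passed 20 counts. At 2-fold 1 was higher (Cd36) and none was lower, against 3.12% and 1.94% of all genes.

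Of the droplet genes, Plin2 was higher at 1.5-fold, and Dgat1, Dgat2 and Soat1, which make the esters stored in droplets, met neither fold rule. Plin2 (chr4:86566623-86588297 in GRCm39), the droplet coat protein of most cells outside fat, had 2390 counts in control and 3600 in stretched cells, or 81.1 and 137 FPKM. Its log2 difference was 0.72 (0.64 to 0.79), 1.64-fold higher, and in the authors' deposited table its adjusted p-value was 0.0293. Plin3, a coat protein of small droplets, had 345 and 456 counts (5.78 and 8.599 FPKM), a difference of 0.53 (0.32 to 0.73), 1.44-fold and short of the 1.5-fold rule. The 5 perilipins summed to 86.9 FPKM in control and 145 in stretched cells, 1.67-fold higher, of which Plin2 made up 93.3% and 94.1%. Of 31-base stretches of Plin2, 8.45% are shared with the pseudogene Gm12551, which was listed at 0 in both libraries. Plin1 (3 and 0 counts) and Plin5 (0 and 0), the perilipins of fat and oxidative tissue, were at or near 0.

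Dgat1, which adds the last fatty acid of a triglyceride, had 282 and 232 counts (-0.16, -0.41 to 0.10), and Dgat2, an unrelated enzyme of the same step, 27 and 23 counts (-0.10, -0.97 to 0.75). Both intervals include 0, and at 50 counts over both libraries a 1.5-fold difference of Dgat2 in either direction was within counting error. Soat1, which esterifies cholesterol for storage in macrophages, had 4238 and 3689 counts, a difference of -0.07 (-0.14 to -0.01), with FPKM of 32.1 in both. Among further glycerolipid and droplet genes, Agpat4, an acyltransferase, was higher with 185 and 362 counts (1.09, interval 0.83 to 1.36), as was Lpin3, a phosphatidate phosphatase, with 130 and 193 (0.69, 0.37 to 1.03). Mogat1, a monoacylglycerol acyltransferase, met the 1.5-fold rule on 19 and 32 counts (0.86, 0.01 to 1.78), and is named after its values were seen. Of the 23 genes of that list, 16 passed 20 counts. At 2-fold 1 was higher and none lower, against 3.12% and 1.94% of all genes. At 1.5-fold 3 were higher and none lower, against 6.20% and 3.64%, a coarse comparison for so short a list.

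The lipases of stored lipid were led by Nceh1, which hydrolyses cholesteryl ester in macrophages. It had 1273 counts in control and 1752 in stretched cells, or 17.4 and 26.9 FPKM, a log2 difference of 0.59 (0.48 to 0.69). At 1.501-fold it is the member nearest to the 1.5-fold rule from inside, as Srebf1 at 1.48-fold is from outside. Nceh1 was under 1.5-fold with DESeq2 size factors (0.54), with a prior of 5 counts and with unrounded counts, and Srebf1 passed it with DESeq2 size factors (-0.61). Pnpla2, adipose triglyceride lipase, which takes the first fatty acid off triglyceride, had 803 and 874 counts (0.25, 0.11 to 0.39). Lipe, hormone-sensitive lipase, had 430 and 383 counts (-0.04, -0.24 to 0.16), and Mgll, which cleaves monoacylglycerol, 0 and 1. Of 8 further lipolysis genes, 5 passed 20 counts and none met either fold rule, as 11515 of all 12772 genes past 20 counts did not. The most abundant of them was Lipa, lysosomal acid lipase, at 4916 and 4874 counts (0.11), and Abhd12 had 1038 and 709 (-0.42).

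Mitochondrial oxidation genes stayed near 0 as a group: none of the 7 met either fold rule, and their median was 0.03. Cpt1a, the gatekeeper of mitochondrial entry, was the highest, with 1175 and 1368 counts (16.7 and 21.9 FPKM) and a log2 difference of 0.34 (0.23 to 0.46). Cpt2, its partner on the inner membrane, had 441 and 412 counts (0.03, -0.17 to 0.22). The acyl-CoA dehydrogenases of medium, long and very long chains differed little: Acadm had 800 and 722 counts (-0.02, -0.17 to 0.12), Acadl 1615 and 1669 (0.17, 0.07 to 0.27) and Acadvl 628 and 648 (0.17, 0.01 to 0.33). The subunits of the trifunctional protein, which carries out the later steps, were both slightly below 0, with Hadha at 2508 and 1910 counts (-0.27, -0.35 to -0.18) and Hadhb at 1527 and 1318 (-0.09, -0.19 to 0.02). Hadhb shares 65.6% of its 31-base stretches with other genes, chiefly the pseudogene Gm13910, which had only 3 and 5 counts. The summed level of the 7 genes was 208 FPKM in control and 218 in stretched cells.

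Of the 24 further oxidation genes, 22 passed 20 counts, none was higher at 1.5-fold and 2 were lower (3.64% of all genes were lower), with a median of -0.12 against -0.0014 for all genes. In 10 of the 22 (45.5%) the interval lay below 0 and in 3 (13.6%) above it, against 21.9% and 22.9% of all genes. Most of these genes are well counted and an interval narrows with the count, so these shares do not compare like with like. Acot2, a mitochondrial thioesterase that releases free fatty acid from acyl-CoA, was lower with 454 and 190 counts (-1.13, -1.38 to -0.88), 2.19-fold. Cpt1b, the muscle form of carnitine palmitoyltransferase 1, is named after its values were seen, since it fell under 100 counts: it had 29 and 4 counts (-2.59, interval -4.70 to -1.22). Summed with overlapping gene models on its strand the counts were 71 and 157, so the direction at Cpt1b turns with the gene model. Etfa and Acaa1a, the most abundant of the list, had differences of -0.13 and 0.08. Decr1, a reductase of unsaturated acyl-CoA found in most cells, was listed at 0 in both libraries, so a listed 0 in this table need not mean that the transcript was absent.

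Of the PPAR genes only Ppard was counted. Ppard, the broadly expressed form, had 654 counts in control and 670 in stretched cells (12.5 and 14.3 FPKM), a log2 difference of 0.16 (0.003 to 0.32). Pparg, the form of adipocytes and alternatively activated macrophages, and Ppara, that of liver, were listed at 0 in both libraries. A count of 0 allows up to 3 counts, or a CPM (count scaled to a common library total) of 0.203 in control and 0.224 in stretched cells, for counting error only. Among the retinoid X receptors, Rxrb had 1074 and 1079 counts (0.13, 0.01 to 0.26) and made up 99.5% and 99.2% of the summed FPKM of the family. Rxra had 11 and 18 counts (0.81, -0.32 to 2.06), an interval that includes 0, and Rxrg was listed at 0. Ncor1, a corepressor that binds unliganded receptors, had 4474 and 3828 counts (-0.10, -0.16 to -0.04).

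Among the receptors' partners past 20 counts, 6 lay above 0 and 2 below, and among their targets 5 lay on each side. All genes past 20 counts were split 6367 above and 6405 below. The interval lay above 0 in 4 of the partners (50%) and below it in 1 (12.5%), against 22.9% and 21.9% of all genes. An interval narrows with the count, so these shares are a coarse comparison. Of 10 further coregulators and partners, 8 passed 20 counts, with a median of 0.09. None met either fold rule, as 11515 of all 12772 genes past 20 counts did not. Hdac3, the deacetylase that works with Ncor1, had 1064 and 1069 counts (0.13), and the coactivator gene Ncoa3 3598 and 3262 (-0.02). Of 17 known PPAR targets outside the 40, 10 passed 20 counts, with a median of -0.02. At either fold 1 was higher (Cd36) and 1 lower (Cpt1b). Among all genes 3.12% were higher and 1.94% lower at 2-fold, and 6.20% and 3.64% at 1.5-fold. Cpt1b had 29 and 4 counts, or 71 and 157 with overlapping models on its strand summed, so its direction turns with the gene model. Ucp2, a mitochondrial carrier and the most abundant target, had 10516 and 10894 counts (0.18, 0.14 to 0.22), and Ech1 had 779 and 643 (-0.15). Pdk4, a target induced in fasted tissue, was listed at 0 in both libraries.

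**Figure D3:**
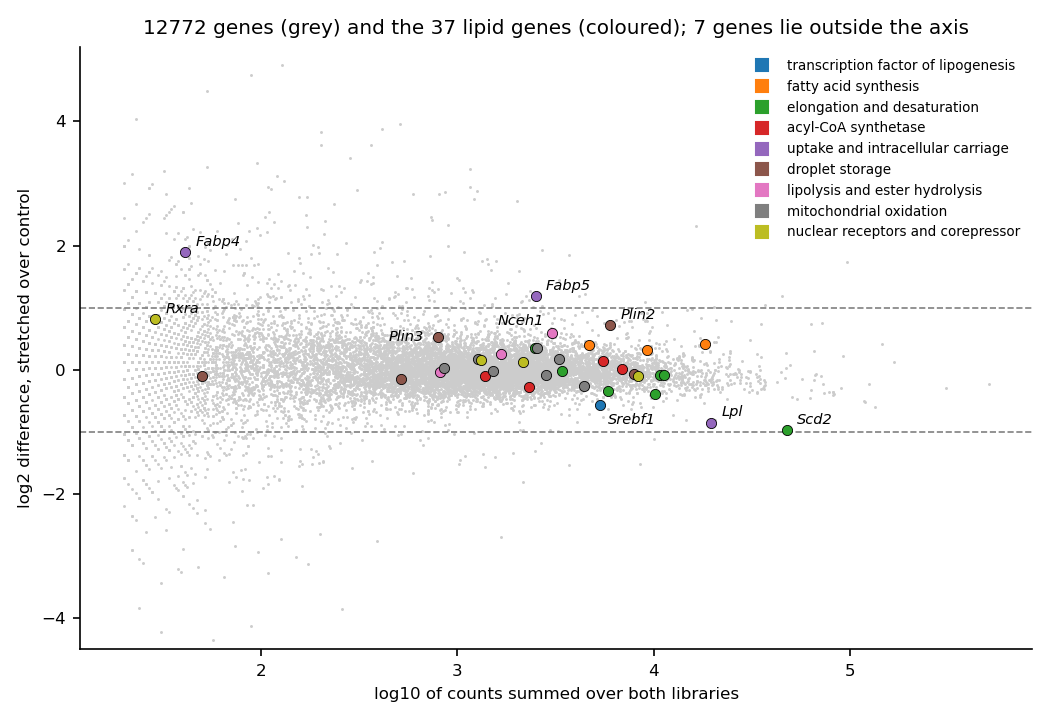
Log2 difference, stretched over control, against log10 of the counts summed over both libraries, for the 12772 genes past 20 counts in grey and the 37 lipid genes coloured by role; dashed lines mark 2-fold. Scd2 and Lpl lie at the low edge of the well-counted genes, and Fabp5 is above the upper line. Fabp4 and Rxra sit among genes with few counts, where counting intervals are wide.

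Over all 7 pathway lists together, 77 of 104 distinct genes outside the 40 passed 20 counts. At 2-fold 2 were higher and 3 lower, against 3.12% and 1.94% of all genes. At 1.5-fold 4 were higher and 4 lower, against 6.20% and 3.64%, and the median was 0.03. The lower genes include Cpt1b, whose direction turns with the gene model. Of the 17 further synthesis genes that passed, Scd3 and Scd4 were lower at 1.5-fold and none was higher. The most abundant of that list, Tecr and Hsd17b12, enzymes of the elongation cycle, had differences of -0.11 (3008 and 2549 counts) and 0.22 (2978 and 3178 counts). In the glycerolipid list the most abundant genes were Agpat1 (1030 and 1063 counts, 0.17) and Gpat4 (2116 and 2152 counts, 0.15), which begin glycerolipid assembly.

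The authors' deposited table lists 38 of the 40 genes and marks 2 as up and none as down, among 507 up and 361 down of 23250 genes in that table. An adjusted p under 0.05 is given there for 5 of the 38 (Fabp4, Fabp5, Plin2, Lpl and Scd2) and for 526 of the 23250 (2.26%). These shares do not compare like with like. Only 12772 genes passed the count filter used above, so many of the 23250 are thinly counted, where a small adjusted p is harder to reach. Of the 38, 37 passed that filter. For Scd2 that table gives a log2 fold change of -0.975 with adjusted p = 0.000293. With 1 library per group, any spread behind those p-values was assumed and not measured and the test used is not stated.

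At the transcript level, several of the 40 genes had counts that were divided differently between annotated starts. Transcripts were grouped where their starts in the GENCODE M21 annotation (GRCm38) lay within 100 bases, and 7 of the 34 genes with at least 100 counts had at least 2 starts that each held 5% or more of the counts summed over both libraries. In 4 of the 7 (57.1%) the leading start differed between the libraries, against 427 of 3050 such genes overall (14.0%). With only 7 genes this share is coarse, and the leading transcript differed in 4 of 33 genes (12.1%), close to the 12.5% of 9238 genes. Transcript counts are the software's division of reads that transcripts largely share, and the error of that division is not in the counting intervals.

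Acly shifted the most. Its upstream start, in the window printed above, had 1027 counts in control and 3838 in stretched cells, or 23.9% and 78.1% of the gene's counts. The start 4.40 kb downstream had 3245 and 1052 counts, or 75.5% and 21.4%. The gene total was 1.25-fold higher in stretched cells, so by these estimated counts each start differed more than the total did. Acaca, which is known to use several promoters, had 1092 and 379 counts from its upstream start (51.5% and 14.8%) and 1018 and 2162 from the start 22.3 kb downstream (48.0% and 84.6%). The downstream start is the one whose printed window holds no motif. It is a start by annotation only, and whether transcription begins there was not tested. Of 31-base stretches of the Acaca transcript that led in control, 56.8% are shared with the pseudogene Gm5182, which had 4 and 5 counts.

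Srebf1 is known to use alternative first exons, the upstream one for the SREBP-1a form and the downstream one for SREBP-1c, and the tables do not name the form of each transcript. Of the starts with at least 2% of its counts, the first, in the upper Srebf1 window printed above, led in both libraries with 2286 and 1583 counts, or 69.4% and 77.8% of the gene's counts. The start 10.1 kb downstream, in the lower window, was rare, with 80 and 158 counts, or 2.43% and 7.76%. The third start, 13.4 kb downstream, had 861 and 262 counts, or 26.1% and 12.9%. The first and the third starts were thus lower in stretched cells, and the second was higher. Another RefSeq window lies further upstream, at chr11:60222532-60222831, and its transcript had 4 and 3 counts. In Rxrb the shares of starts only 0.589 kb apart went from 30.6% to 58.9% and from 63.3% to 35.3%. In Ncor1 the first start had 56.7% and 38.9% of the counts and the start 18.8 kb downstream 27.7% and 51.2%.

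**Figure D4:**
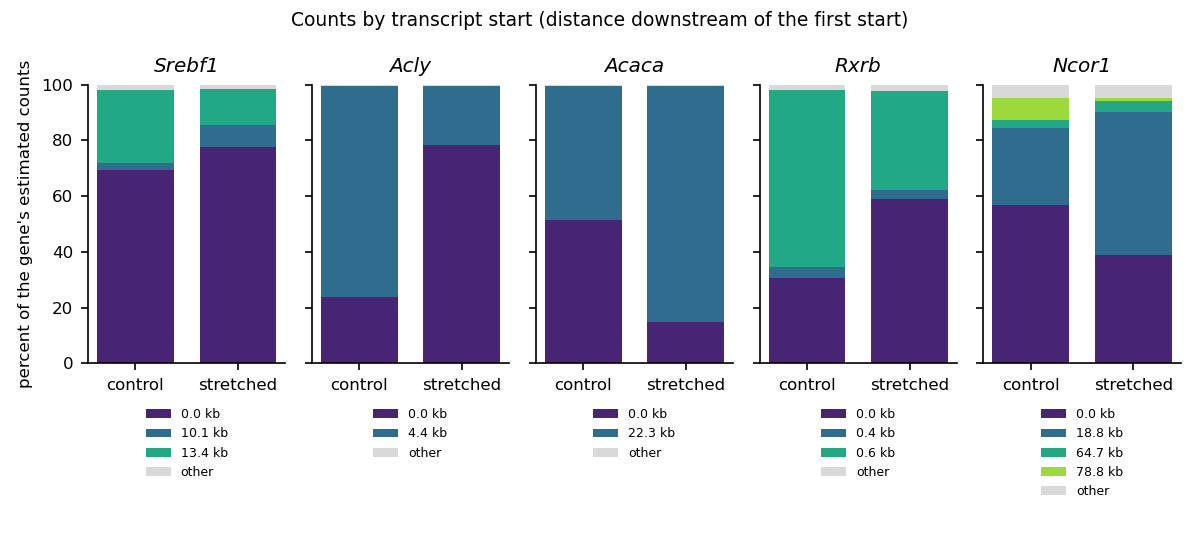
Percent of each gene's estimated counts by annotated transcript start, given as distance downstream of the first start in kb, in control and stretched cells (1 library each); grey holds starts with under 2% of the summed counts. The leading start differs between the libraries for Acly, Acaca, Rxrb and Ncor1, but not for Srebf1.

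A single main start was the usual case. Only 7 of the 34 genes, and 3050 of all 10084 genes grouped in this way, had at least 2 starts that each held 5% or more. Of the genes that met the 1.5-fold rule, Scd2, Lpl, Fabp5, Plin2 and Nceh1 each had over 97% of their counts from 1 start in both libraries. Fabp4, with under 100 counts, was not examined. Fasn, which met neither fold rule, also had over 97% from 1 start. Srebf1, with a larger difference (-0.57) than Fasn (0.41), had several starts. Fads1 had 1 start but 2 main transcripts from it: the second had 0 counts in control and 1140 in stretched cells, or 22.7% of the gene, while the first had 5739 and 3841. The Fads1 gene total nonetheless differed by only -0.08 on the log2 scale.

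**Figure D5:**
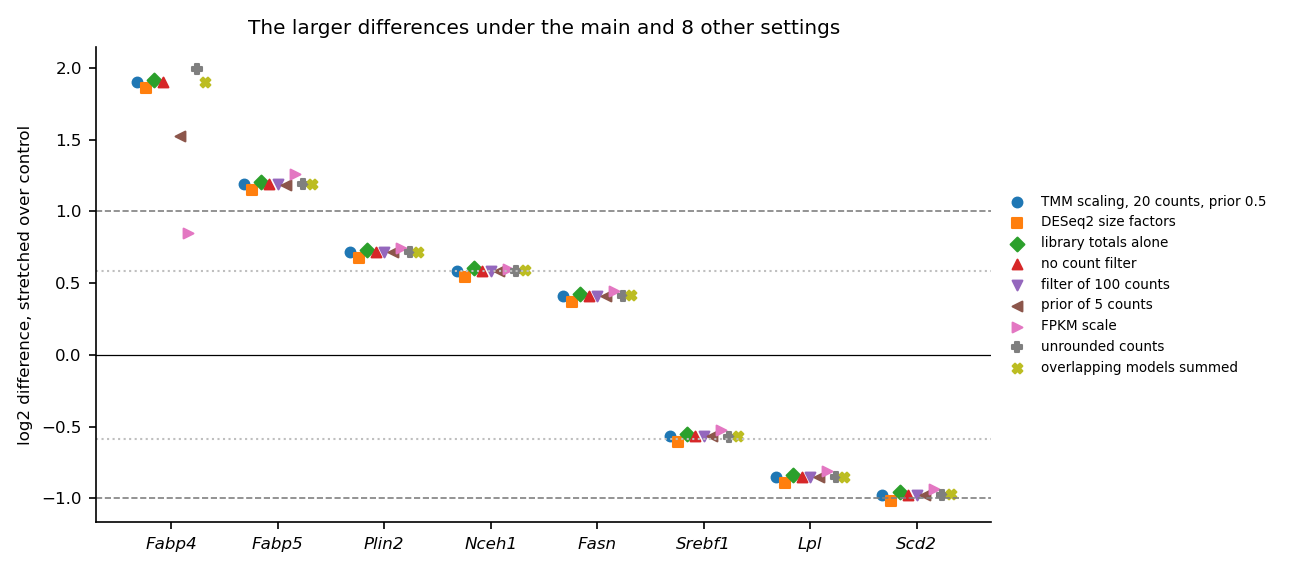
Log2 difference of 8 of the genes under the main setting and 8 other settings of scaling, count filter, prior count, scale, rounding and gene model; dashed lines mark 2-fold and dotted lines 1.5-fold. Fabp5 stays between 1.15 and 1.26 and Lpl between -0.89 and -0.81, Fabp4 ranges from 0.85 to 1.99, and Scd2, from -1.02 to -0.93, straddles the lower 2-fold line.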

How the data were processed

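Of the data used here, the authors deposited a gene table and a transcript table that give each library's estimated count and FPKM, per the file headers. StringTie and the build GRCm39 are named in the submitters' processing notes, while aligner, versions and counting strand are not given in the sources used. The deposited counts are whole numbers: for 99.98% of transcripts in either library they equal FPKM times length times a constant, rounded up (tolerance 0.05). Another deposited table gives the authors' log2 fold change, p-value and adjusted p-value per gene. Columns carry short prefixes, read here as control and tensile and matched to the samples titled NC and Tensile; no label states the first match. 25 further per-sample columns were not used.

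Counts were scaled by TMM (edgeR 4.0.16 in R 4.3.3, factors 0.995 and 1.01), a prior of 0.5 counts was added, and each ratio was given an exact conditional binomial 95% interval. No test was possible with 1 library per group. Other settings were DESeq2 1.42.0 size factors, library totals alone, count filters of 0 and 100, a prior of 5, log2(FPKM + 1), unrounded counts and summed overlapping models. Intervals cover counting error only, since each group has 1 library. Fragments without molecular identifiers are not independent molecules, so the intervals may be too narrow even for counting error. The calculation was checked on simulated data.

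The genes and lists were chosen with earlier results of these data known. Every one of the 40 genes is named. Of the pathway lists, each gene at 1.5-fold with at least 100 counts over both libraries is named, together with the 2 most abundant by FPKM of each list. Positions of genes are in GRCm39, and transcript starts and promoter windows in GRCm38, with no conversion between them. Shared 31-base stretches were counted against all GENCODE M21 transcripts, in which all 38 leading transcripts had the deposited length.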

Additional observations from a re-analysis of the deposited data

How the results depend on the processing

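No paired analysis was possible because each group has 1 library, and for the same reason no library could be left out. Of 293 gene values under the 8 other settings, 285 stayed inside the counting interval of the main value, 8 did not, and 6 differed from it in sign, all of genes within 0.1 of 0; no called gene changed sign. The number of the 40 genes higher at 2-fold was 1 in place of 2 on the FPKM scale, where Fabp4 had a log2 difference of 0.85, and 1 with a filter of 100 counts, which removes Fabp4. The number lower at 2-fold was 1 in place of 0 with DESeq2 size factors, where Scd2 reached -1.02. At 1.5-fold, 3 in place of 4 were higher with DESeq2 size factors, a prior of 5, unrounded counts or a filter of 100 (Nceh1 was lost, or with the filter Fabp4), and 3 in place of 2 were lower with DESeq2 size factors, where Srebf1 reached -0.61. The median of the genes ranged from -0.04 to 0.05. Over all genes the 2-fold counts were 398 higher and 248 lower, 150 and 68 on the FPKM scale, and 182 and 66 with a filter of 100. Depth limits Fabp4, Dgat2 and Rxra, each with 50 or fewer counts over both libraries.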
